A study of Mus musculus with 9 samples.

Results

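Of the 22161 gene rows in the table, 48 belong to the Wnt module described here: the secreted Wnt ligands, the Frizzled receptors, the coreceptors Lrp5 and Lrp6, the secreted antagonists, and the R-spondin, Lgr, Znrf3, Rnf43 and Axin2 genes that tune the signal. The rule picks rows by gene symbol. There are 17 Wnt ligands, 10 Frizzled receptors, 2 coreceptors, 6 secreted antagonists that bind Wnt (Sfrp, Frzb and Wif1), 4 Dickkopf genes, 3 R-spondins, 3 Lgr receptors, 2 ubiquitin ligases and Axin2. After a filter on low values, 38 of the 48 could be tested.

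Wnt proteins are secreted ligands that bind a Frizzled receptor. With Lrp5 or Lrp6 as coreceptor they stabilise beta-catenin, which enters the nucleus and switches on target genes through TCF and LEF factors, and with other coreceptors they act on cell polarity and movement. Sfrp proteins, Frzb and Wif1 bind Wnt outside the cell, Dickkopf proteins block the LRP coreceptor, Znrf3 and Rnf43 remove Frizzled from the membrane, and R-spondins acting through Lgr receptors hold Znrf3 and Rnf43 back. In the mouse embryo Wnt9b, Wnt4 and Wnt11 take part in building nephrons and the branching collecting duct, and the pathway has been studied in polycystic kidney disease.

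The study measured kidney RNA of 9 C57BL/6 mice at postnatal day 70, which is 10 weeks. The 3 groups of 3 mice were double knockouts of Pkd2 and Ift88 (Ift88 fl/fl;Pkd2 fl/fl;Pax8rtTA;TetO-cre), Pkd2 knockouts (Pkd2 fl/fl;Pax8rtTA;TetO-cre), and wild types with no such allele named in their label. Doxycycline at 2 mg/ml was given by mouth to every mouse, the wild types too, beginning on postnatal day 28 and lasting 2 weeks. Pkd2 encodes the channel polycystin-2, which is mutated in polycystic kidney disease, and Ift88 encodes a transport protein needed to build the primary cilium. The Pax8 driver acts in kidney tubule cells, so interstitial, vascular and immune cells of a mutant kidney are not targeted. No group is labelled as carrying the driver and cre without a floxed gene, and the labels do not say whether the wild types carried them.

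Libraries held 40454151 to 42874467 normalized counts (the authors' DESeq2-scaled counts, in which 1 read was worth 0.906 to 1.13), and 37056843 to 47314829 reads could be recovered from them. Kidney tubule markers were abundant in every library, with 6 proximal tubule markers summing to 504996 to 579915 normalized counts. Mice 1 and 2 of the Pkd2 knockout group share a name prefix that mouse 3 lacks, the wild type group has the same split, and the double knockouts have their own, so the prefix and the genotype cannot be told apart. Pkd2 averaged 4687 ± 789 normalized counts in double knockouts, 5118 ± 414 in Pkd2 knockouts and 14095 ± 375 in wild types (SD, n = 3 each). Its log2 fold change was -1.60 ± 0.12 (SE) in double knockouts and -1.46 ± 0.12 in Pkd2 knockouts against wild type (limma, adjusted p = 0.000843 and 0.000972). Ift88 averaged 752 ± 71.4 in double knockouts, 1140 ± 66.0 in Pkd2 knockouts and 1085 ± 41.0 in wild types. The Ift88 difference between double and Pkd2 knockouts was -0.60 ± 0.09 (limma, adjusted p = 0.0358). It missed the threshold when any 1 of 6 mice was left out: wild type 1 or 2, Pkd2 knockout 1 or 2, or double knockout 1 or 2 (adjusted p up to 0.126). It also missed it when wild types were kept out of the fit (limma, adjusted p = 0.0984). Ift88 in double knockouts against wild types missed the threshold (-0.53 ± 0.09, limma, adjusted p = 0.0617).

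The members differed in level by more than 4 orders of magnitude. Divided by exon length, the mean over the 9 libraries was highest for the R-spondin receptor Lgr4, at 1846 normalized counts per kb, and lowest for the ligand Wnt3a, at 0.0752. After Lgr4 came the antagonist Sfrp1 (1185 per kb), Lrp6 (923), the antagonist Frzb (712), and the receptors Fzd1 (695) and Fzd4 (545). The ligands were lower: Wnt7b led with 103 per kb, followed by Wnt5b (95.8), Wnt5a (89.1) and Wnt9b (58.6), while Wnt11 had 8.09. These 4 leading ligands made up 68.3 to 78.4% of the summed ligand level per kb in each mouse. Fzd1 and Fzd4 made up 54.5 to 65.2% of the summed Frizzled level, Sfrp1 and Frzb 95.6 to 97.7% of the summed secreted antagonist level, and Lgr4 99.4 to 99.8% of the summed Lgr level. Lengths are the union of a gene's annotated exons, so a gene that uses a short transcript is understated.

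**Figure D1:**
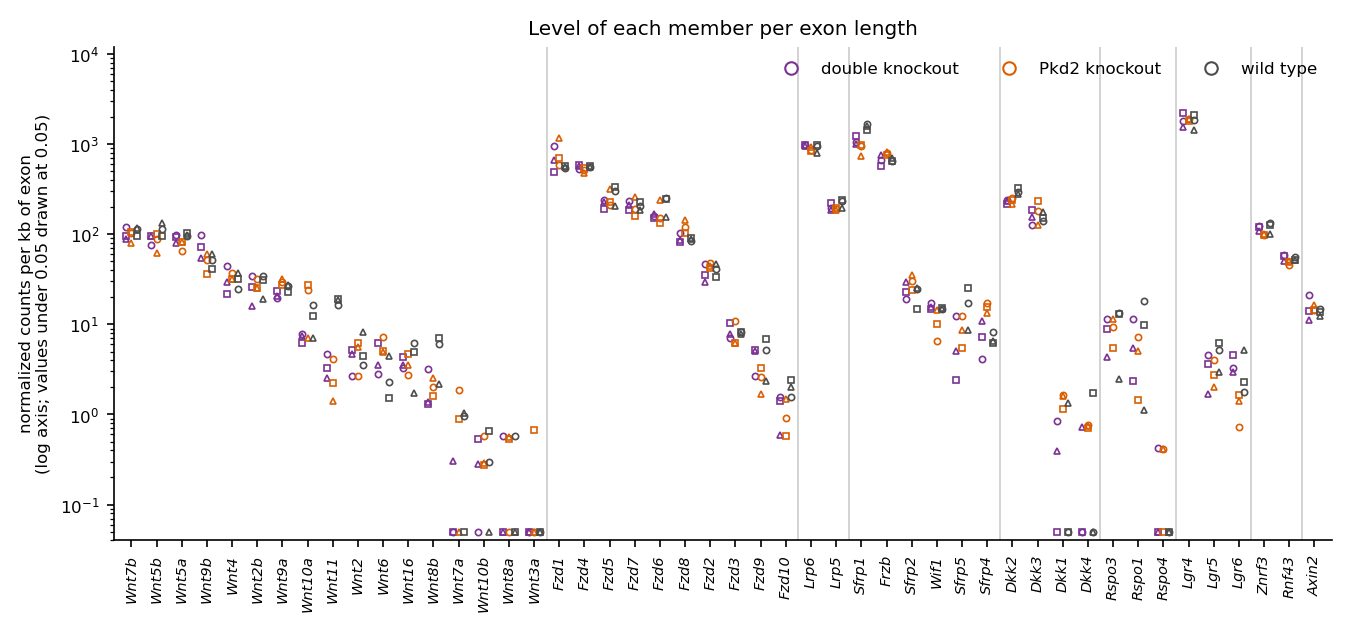
Level of each of the 48 members in each mouse, in normalized counts per kb of exon on a log axis, by role and then by mean level, with double knockouts, Pkd2 knockouts and wild types from left to right at each gene. Lgr4, Sfrp1 and Lrp6 lie highest, Wnt7b leads the ligands at 103 per kb on average, and Wnt11 is the ligand whose wild type points stand clear above both mutant groups.

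10 members lay under the filter of a mean of 10 normalized counts over the 9 libraries and were not tested. They were the ligands Wnt3a, Wnt6, Wnt7a, Wnt8a and Wnt10b, the receptors Fzd9 and Fzd10, the antagonists Dkk1 and Dkk4, and Rspo4. The highest value of any of them in any mouse was 15.9, for Wnt6 in a Pkd2 knockout, and Dkk1, a beta-catenin target as well as an antagonist, never exceeded 3.97.

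A ligand and an antagonist, Wnt11 and Sfrp1, fell in Pkd2 knockouts, and no member passed the test as higher. Of the 38 tested members, 2 were called in Pkd2 knockouts against wild types (limma on log2(normalized count + 1), two-sided, Benjamini-Hochberg adjusted p below 0.05 over all genes tested), against 2.40% of all 15740 genes. Both were lower, a direction called for 1.25% of all genes, and 0 were higher, against 1.14%. At an unadjusted p below 0.05 there were 10 members, 3 higher and 7 lower, and 18.0% of all genes (9.36% higher and 8.67% lower). The groups did not overlap for 15 members, 5 higher and 10 lower, and for 25.2% of all genes (12.4% higher and 12.8% lower). The median log2 fold change of the 38 was -0.12, against 0.00 over all genes. edgeR called the same 2 members, against 2.40% of all genes by that tool, and DESeq2 called 5, of which 2 were higher, against 7.45% of all genes.

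Between double and Pkd2 knockouts limma called 0 of 38 members, against 0.394% of all genes, and 0 were called by edgeR, against 0.419%, and by DESeq2, against 3.0%. At an unadjusted p below 0.05 there were 9 members, 4 higher and 5 lower, and 10.7% of all genes (4.19% higher and 6.49% lower). The groups did not overlap for 7 members, 5 higher and 2 lower, and for 15.2% of all genes (7.40% higher and 7.78% lower). Between double knockouts and wild types limma called 0 of 38, against 0.229% of all genes, while edgeR called 1 of 38, against 0.210%, and DESeq2 called 3 of the 32 members to which it gave an adjusted p, against 2.76%. At an unadjusted p below 0.05 there were 5 members, 0 higher and 5 lower, and 11.7% of all genes (5.93% higher and 5.81% lower). The groups did not overlap for 4 members, 0 higher and 4 lower, and for 18.3% of all genes (9.10% higher and 9.24% lower). The comparisons share libraries: the wild types serve both mutant groups, and the Pkd2 knockouts stand in the other pair of comparisons.

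**Figure D2:**
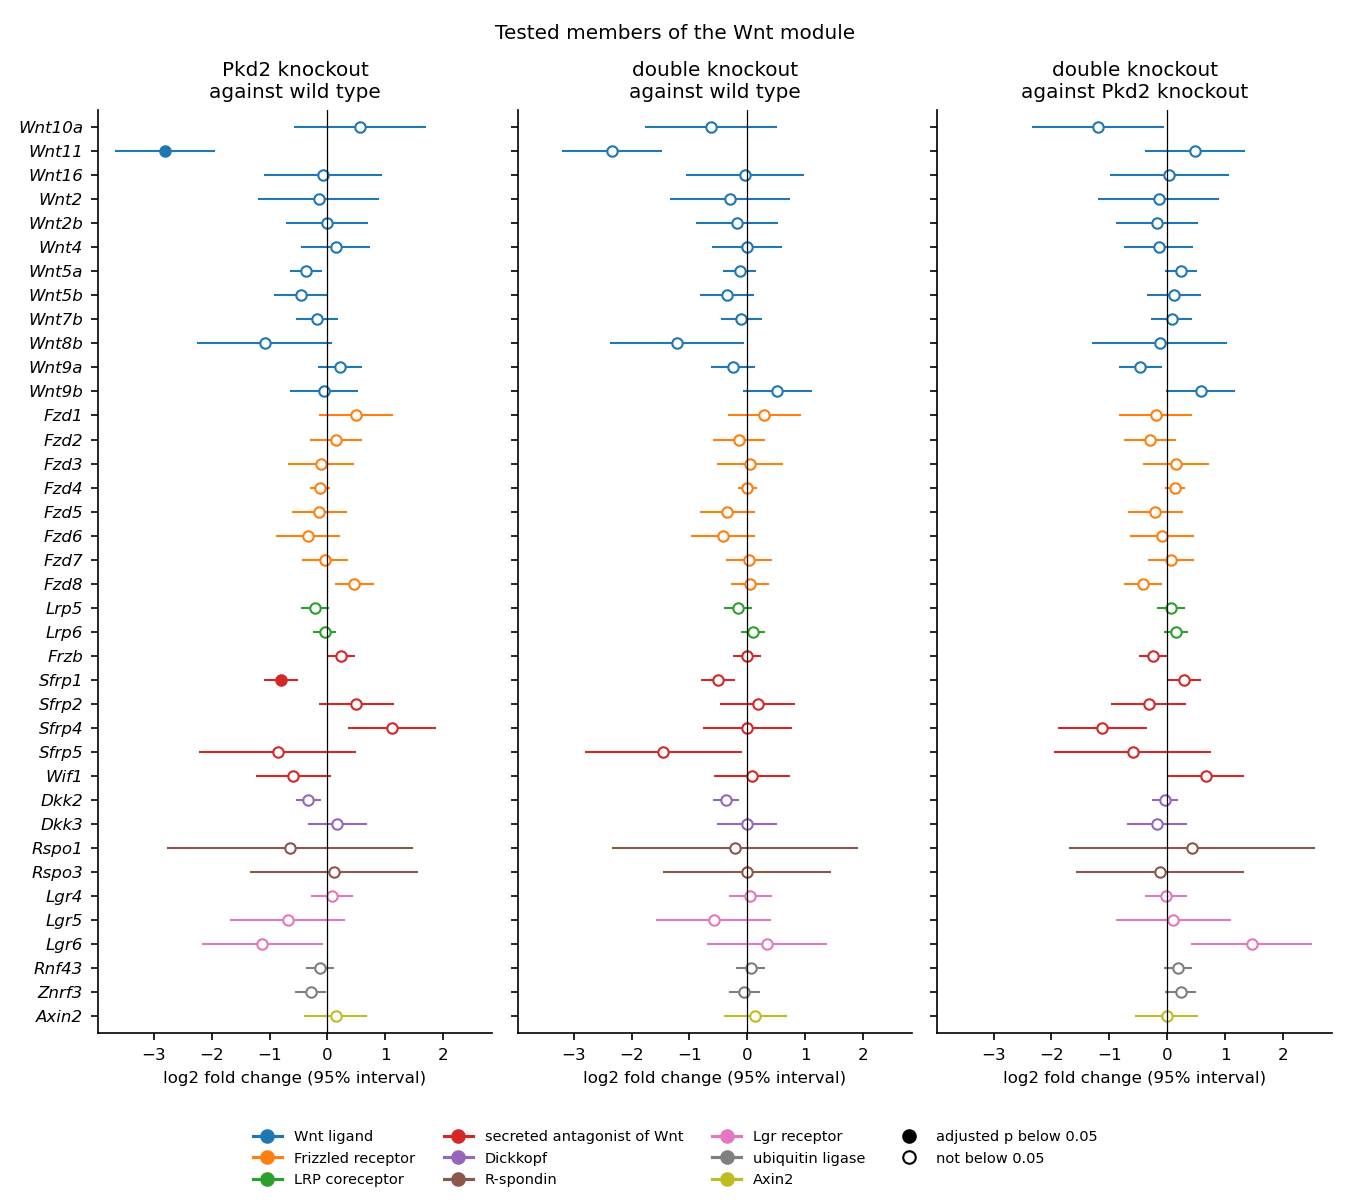
Log2 fold change (point) and its 95% interval (line) for the 38 tested members in each comparison, coloured by role, with a filled point where limma's adjusted p is below 0.05. The filled points are Wnt11 and Sfrp1 in Pkd2 knockouts against wild types, both left of 0.

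Wnt11, a ligand known mainly for signalling that does not use beta-catenin and for its role at the ureteric bud tip of the mouse embryo, had 19.3, 13.6 and 10.5 normalized counts in double knockout mice 1, 2 and 3. It had 16.9, 9.3 and 5.8 in Pkd2 knockouts, against 68.3, 80.0 and 77.3 in wild types. All 6 mutant kidneys lay far below all 3 wild type kidneys, and the mutant groups overlapped each other. Wnt11 fell in Pkd2 knockouts to 14.2% of the wild type level, a log2 fold change of -2.81 ± 0.38 (SE, 95% interval -3.66 to -1.97; limma, adjusted p = 0.00884). The call was lost without wild type mouse 2 (adjusted p = 0.0535), at a log2 fold change of -2.77. In double knockouts the level was 19.3% of wild type, a log2 fold change of -2.33 ± 0.38 (95% interval -3.18 to -1.49) that missed the threshold (limma, adjusted p = 0.0546). That difference passed with edgeR (adjusted p = 0.0458), with DESeq2 (adjusted p = 5.39e-06), with a pseudocount of 10 (limma, 0.0197), with array quality weights (0.0186), with only these 2 groups in the fit (0.0356), and without Pkd2 knockout 1 (0.0418) or 3 (0.0318). Double and Pkd2 knockouts differed by 0.48 on the log2 scale (95% interval -0.37 to 1.33; limma, adjusted p = 0.760). Wnt11 rested on few reads, 19, 15 and 11 in double knockouts, 17, 10 and 6 in Pkd2 knockouts, and 68, 71 and 71 in wild types. An annotated processed pseudogene on the opposite strand, Gm8398, covers 8.80% of the exon bases of Wnt11, and whether the counting used strand is not given in the sources used here.

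Markers of the thick ascending limb, a salt-reabsorbing nephron segment, were lower in the mutants as well. The 4 markers summed to 155852 to 203245 normalized counts in double knockouts, 117426 to 154295 in Pkd2 knockouts and 250620 to 262915 in wild types, and 2 of the 4 were called lower in Pkd2 knockouts against wild types. Markers of dividing cells summed to 358 to 816 in double knockouts, 1840 to 2279 in Pkd2 knockouts and 293 to 393 in wild types, and 4 of 4 were called higher in Pkd2 knockouts against wild types. None of the markers in either list was at 0 in all libraries. Markers of 4 further epithelial types also summed to less in Pkd2 knockouts than in wild types without overlap. Those of intercalated cells, of which 1 of 4 was called lower, summed to 6765 to 8455 in double knockouts, 5227 to 5560 in Pkd2 knockouts and 7299 to 7421 in wild types. For the distal convoluted tubule the sums were 23849 to 32806, 24009 to 24272 and 30066 to 40169 in the same order of groups, and for principal cells 12022 to 21117, 13334 to 16774 and 17905 to 19030. Podocyte markers summed to 14517 to 15861 in double knockouts, 13084 to 13911 in Pkd2 knockouts and 15332 to 15700 in wild types, and no marker of these last 3 lists was called in Pkd2 knockouts against wild types. The part of these lists in the Wnt11 result was not tested, and in whole-kidney RNA fewer cells of a type cannot be told apart from less RNA per cell.

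Promoter sequence is shown for Wnt11, the member with the largest fold change, beside Axin2, whose promoter window serves as a comparison because it is a standard readout of beta-catenin. Each line gives the 250 bases before a RefSeq start on GRCm38.p6, 5′ to 3′ on the gene's strand, with capitals marking the TCF/LEF core motif CTTTG read on either strand (CAAAG on the strand shown).
Wnt11, chr7:98834862-98835111, plus strand: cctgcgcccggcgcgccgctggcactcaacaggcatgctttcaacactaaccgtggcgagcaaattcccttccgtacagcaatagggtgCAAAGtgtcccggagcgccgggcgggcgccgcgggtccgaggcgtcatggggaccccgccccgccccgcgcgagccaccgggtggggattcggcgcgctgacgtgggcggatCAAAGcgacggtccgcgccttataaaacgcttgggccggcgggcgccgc
Axin2, chr11:108920099-108920348, plus strand: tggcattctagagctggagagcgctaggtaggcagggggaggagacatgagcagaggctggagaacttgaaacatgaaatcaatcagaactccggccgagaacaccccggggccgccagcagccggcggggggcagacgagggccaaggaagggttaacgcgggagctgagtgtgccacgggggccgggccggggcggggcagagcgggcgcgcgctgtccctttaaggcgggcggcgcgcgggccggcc
The Wnt11 stretch holds the core at positions 90 and 202, counted from 1 at its 5′ end, and the Axin2 stretch holds 0. The longer motif CTTTGAT, which contains the core, overlaps the Wnt11 core at position 202. A second annotated Wnt11 start had a window with 0 cores. RefSeq windows of 300 bases (250 before to 50 after the start) matched 31 of the 48 members, with 35 windows in all. The core occurred in 13 of these windows, or 37.1%, against 53.9% of 32851 windows of all genes. CTTTGAT occurred in 2 of the 35, of Wnt11 and Wnt5b, or 5.71%, against 3.73% of all windows. A match is a description of the letters, not a binding site. A window with 0 matches, such as that of Axin2, says nothing of sequence outside it.

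Among the other 11 tested ligands, none was called in any comparison by limma. Wnt5a, a ligand of the polarity branch with the highest mean count of the ligands, had 772, 730.4 and 629.6 normalized counts in double knockouts, 514, 650.4 and 642 in Pkd2 knockouts, and 751, 816 and 765 in wild types. Pkd2 knockouts lay below wild types without overlap, with a log2 fold change of -0.37 ± 0.12 (limma, adjusted p = 0.136). Wnt5b, its close relative, had 204, 255.5 and 252 in double knockouts, 238, 264 and 165 in Pkd2 knockouts, and 304, 255.8 and 351 in wild types. The double knockouts lay just below the lowest wild type, without overlap. The Pkd2 knockout range overlapped the wild type range, with a log2 fold change of -0.46 ± 0.20 (limma, adjusted p = 0.264). Wnt7b, the collecting duct ligand that leads per kb and was named after its values were seen, had 583, 474 and 438 in double knockouts, 508, 516 and 395 in Pkd2 knockouts, and 564, 469 and 571 in wild types, with all 3 groups overlapping.

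Between double and Pkd2 knockouts 3 ligands, Wnt9b, Wnt9a and Wnt10a, had an unadjusted p below 0.05, and none passed after adjustment. Wnt9b, which in the mouse embryo signals from the ureteric bud to induce nephrons, had 443, 324 and 246 normalized counts in double knockouts, 234, 165 and 273 in Pkd2 knockouts, and 234, 187 and 274 in wild types. 2 of the 3 double knockout kidneys lay above every other kidney and the third fell among them, so that the log2 fold change of 0.58 ± 0.25 against Pkd2 knockouts did not pass (limma, adjusted p = 0.462). Wnt9a had 66.1, 78.8 and 69.0 in double knockouts, 97.3, 91.6 and 107 in Pkd2 knockouts, and 88.4, 75.5 and 91.4 in wild types. Every double knockout value was below every Pkd2 knockout value, with a log2 fold change of -0.46 ± 0.16 (limma, adjusted p = 0.312). Wnt10a, a ligand of the beta-catenin branch, had 19.3, 15.4 and 18.2 in double knockouts, 59.6, 67.3 and 17.5 in Pkd2 knockouts, and 40.2, 30.4 and 17.4 in wild types. Pkd2 knockout 3 stood with the double knockouts and apart from the other mice of its group, and wild type 3 was the lowest of its group. The log2 fold change between double and Pkd2 knockouts was -1.19 ± 0.50 (limma, adjusted p = 0.428). Leaving out Pkd2 knockout 3, the low mouse of its group, gave -1.79 and missed the threshold (limma, adjusted p = 0.0606). With wild type 3 left out as well, the same -1.79 passed (limma, adjusted p = 0.0262), as did 1.96% of all genes. Wnt8b, near the filter, had 11.2, 4.5 and 4.8 in double knockouts, 7.0, 5.6 and 8.8 in Pkd2 knockouts, and 21.1, 24.8 and 7.6 in wild types. Its mean of 10.6 passed the filter only through the wild types (17.8, against 6.84 in double knockouts and 7.11 in Pkd2 knockouts), which favours a lower result in mutants. The third wild type kidney fell among the mutants, and the log2 fold change in double knockouts against wild types was -1.22 ± 0.51 (limma, adjusted p = 0.397). The remaining tested ligands, Wnt2, Wnt2b, Wnt4 and Wnt16, overlapped between groups in every comparison.

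No Frizzled receptor or LRP coreceptor was called in any comparison by limma. Fzd8 had 624, 495 and 512 normalized counts in double knockouts, 720.0, 611 and 864 in Pkd2 knockouts, and 500.2, 539 and 534 in wild types. Every Pkd2 knockout value lay above every wild type value, and the double knockouts overlapped both groups. The log2 fold change was 0.47 ± 0.14 in Pkd2 knockouts against wild types (limma, adjusted p = 0.121; DESeq2, 0.0355) and -0.42 ± 0.14 in double knockouts against Pkd2 knockouts (limma, adjusted p = 0.284). Fzd4, a receptor also used by the ligand Norrin, had the highest mean count of the Frizzled genes, with 3532, 3915 and 3877 in double knockouts, 3435, 3641 and 3261 in Pkd2 knockouts, and 3714, 3821 and 3773 in wild types. Its values were among the steadiest of the module, although Pkd2 knockouts lay just below wild types without overlap.

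Fzd1, Fzd5 and Fzd6 were named after their values were seen, because 1 or 2 mice set their group's spread. Fzd1 had 4028, 2065 and 2818 normalized counts in double knockouts, 2479, 2932 and 4900.2 in Pkd2 knockouts, and 2287, 2407 and 2319 in wild types. Pkd2 knockout 3 and double knockout 1 were the high mice, and the wild types lay close together, below all 3 Pkd2 knockouts. Fzd5 had 1643, 1330.2 and 1575 in double knockouts, 1479.7, 1599 and 2222 in Pkd2 knockouts, and 2118, 2334 and 1426 in wild types. Fzd6 had 760.1, 723 and 819 in double knockouts, 725, 647 and 1169 in Pkd2 knockouts, and 1204, 1199 and 754 in wild types. For both genes mouse 3 stood above mice 1 and 2 in the Pkd2 knockout group and below them in the wild type group. The tested receptors Fzd2, Fzd3 and Fzd7 overlapped between groups in every comparison. Lrp6, the coreceptor with the higher level, had 13545, 13445 and 13043 in double knockouts, 11727, 11547 and 12776 in Pkd2 knockouts, and 13064, 13374 and 11013 in wild types. Double knockouts lay above Pkd2 knockouts without overlap, and wild types overlapped both groups. Lrp5 ranged from 1805 to 2164 in double knockouts, 1833 to 1889 in Pkd2 knockouts and 1903 to 2370 in wild types, and its Pkd2 knockout values lay below its wild type values without overlap.

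Sfrp1 was the secreted antagonist that fell. It binds Wnt ligands through a domain like that of Frizzled, and had 4586, 5383 and 4416 normalized counts in double knockouts, 4212, 4309.7 and 3252 in Pkd2 knockouts, and 7314, 6231 and 6940.5 in wild types. All mutant kidneys lay below all wild type kidneys, and every Pkd2 knockout lay below every double knockout. In Pkd2 knockouts Sfrp1 fell to 57.5% of wild type, a log2 fold change of -0.81 ± 0.12 (95% interval -1.08 to -0.53; limma, adjusted p = 0.0156). The call was lost without wild type mouse 1 (adjusted p = 0.0690), at a log2 fold change of -0.76. In double knockouts it was 70.2% of wild type, a log2 fold change of -0.51 ± 0.12 (limma, adjusted p = 0.165; DESeq2, 0.0103). Between double and Pkd2 knockouts the log2 difference was 0.29 ± 0.12 (limma, adjusted p = 0.426), and 0.17 without Pkd2 knockout 3. The summed level of the 6 secreted antagonists per kb was 1774 to 1858 in double knockouts, 1633 to 1826 in Pkd2 knockouts and 2139 to 2397 in wild types, with mutants below wild types in every mouse. Sfrp1 made up 45.5 to 69.8% of that sum.

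The other secreted antagonists went different ways and none was called by limma. Frzb, also called Sfrp3, had 2175, 1875 and 2478 normalized counts in double knockouts, 2576, 2457 and 2645 in Pkd2 knockouts, and 2133, 2111 and 2299 in wild types. Pkd2 knockouts were above every wild type, with a log2 fold change of 0.23 ± 0.10 (limma, adjusted p = 0.260), and double knockouts differed from Pkd2 knockouts by -0.24 ± 0.10 (limma, adjusted p = 0.411), or by -0.14 without double knockout 2. Sfrp4 had 17.3, 29.9 and 46 in double knockouts, 72.5, 64.5 and 55.6 in Pkd2 knockouts, and 34.1, 25.9 and 27.2 in wild types. The Pkd2 knockouts stood above all other kidneys, with a log2 fold change of 1.12 ± 0.33 against wild types (limma, adjusted p = 0.121; DESeq2, 0.0461). Double knockouts against Pkd2 knockouts gave -1.12 ± 0.33 (limma, adjusted p = 0.231). Wif1, which binds Wnt directly, had 41.7, 36.2 and 38.3 in double knockouts, 15.9, 24.3 and 35.1 in Pkd2 knockouts, and 36.2, 37.2 and 35.9 in wild types. The Pkd2 knockouts were the low and scattered group, and double knockouts differed from them by 0.67 ± 0.28 on the log2 scale (limma, adjusted p = 0.428), or by 0.39 without Pkd2 knockout 1. Sfrp5 had 23.4, 4.5 and 9.6 in double knockouts, 23.8, 10.3 and 16.6 in Pkd2 knockouts, and 33.1, 48.5 and 16.3 in wild types, with overlap between all groups and a log2 fold change of -1.45 ± 0.59 in double knockouts against wild types (limma, adjusted p = 0.385). Sfrp2 overlapped in every comparison.

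Markers of interstitial fibroblasts, a cell type known to make secreted Wnt antagonists, summed to less in double knockouts than in either other group. The 11 markers summed to 7660 to 9940 normalized counts in double knockouts, 12317 to 20867 in Pkd2 knockouts and 10172 to 14408 in wild types. Pkd2 knockout 3 had the 12317, within the wild type range, while mice 1 and 2 of that group had 19886 and 20867. By mean, 8 of the 11 were higher in Pkd2 knockouts than in wild types and none was called, while 10 of 11 were lower in double knockouts than in Pkd2 knockouts and 1 was called. The 8 included the matrix genes Col1a1 (2201 in Pkd2 knockouts, 1010 in wild types) and Col3a1 (3633 and 1746). The 3 that were lower in Pkd2 knockouts were Pdgfra (1024 and 1100), Acta2 (1049 and 1193) and Tagln (1131 and 1204). None of the 11 was at 0 in all libraries. The part of these markers in the antagonist results was not tested.

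**Figure D3:**
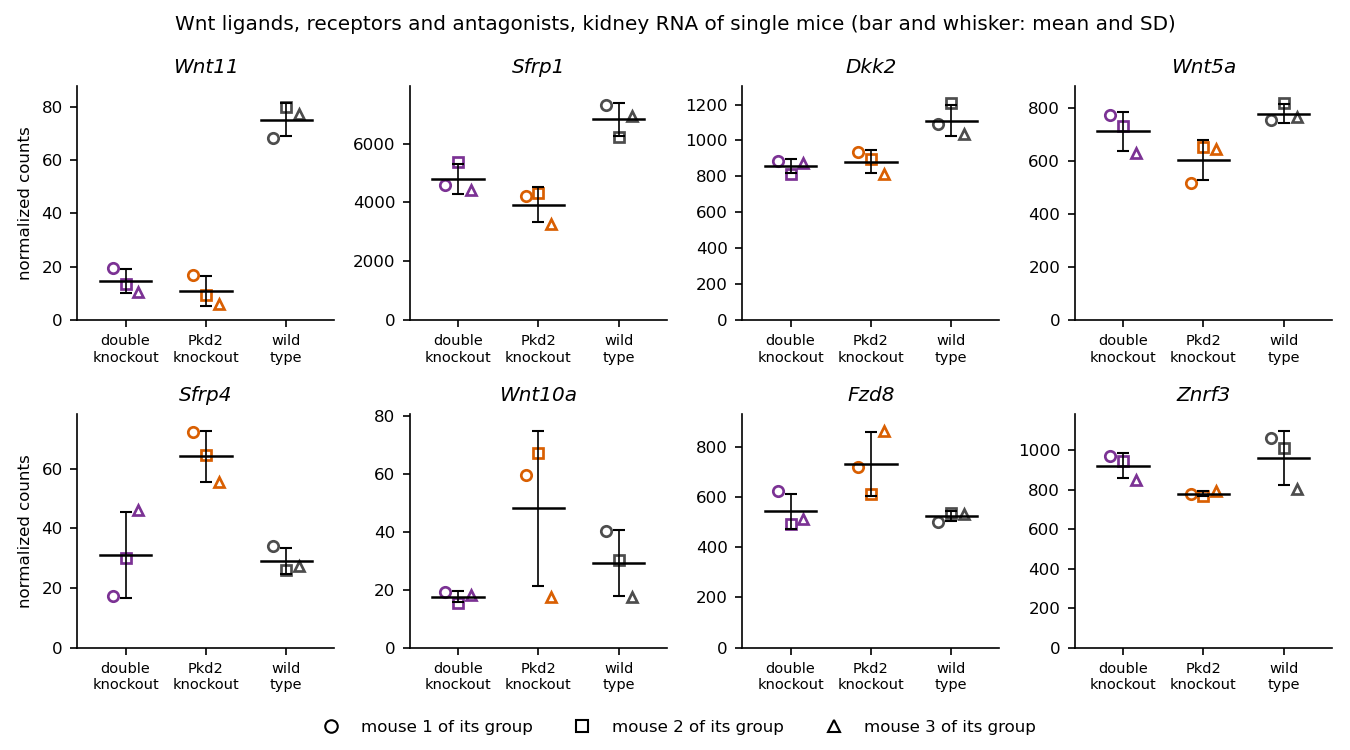
Normalized counts of 8 members in each mouse (symbols for mice 1, 2 and 3), with the group mean (bar) and SD (whisker), for double knockouts, Pkd2 knockouts and wild types from left to right. Wnt11, at 5.8 to 19.3 in mutants and 68.3 to 80.0 in wild types, Sfrp1 and Dkk2 lie below wild type in all 6 mutant kidneys, and Sfrp4 is highest in the 3 Pkd2 knockouts.

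Dkk2, a Dickkopf protein that binds Lrp5 and Lrp6, had 887, 812 and 876 normalized counts in double knockouts, 936, 895 and 813 in Pkd2 knockouts, and 1089.7, 1207 and 1034 in wild types. All 6 mutant values were below all 3 wild type values, and the mutant groups overlapped. The log2 fold change was -0.37 ± 0.09 in double knockouts (limma, adjusted p = 0.165) and -0.33 ± 0.09 in Pkd2 knockouts (limma, adjusted p = 0.0957). DESeq2 called both (adjusted p = 0.0164 and 0.0226). Dkk3, a divergent family member, overlapped in every comparison.

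Among the genes that set receptor turnover, none was called by limma. Lgr4 had 10584, 13195 and 9149.8 normalized counts in double knockouts, 11070.0, 10758 and 11229.5 in Pkd2 knockouts, and 11029, 12266 and 8457 in wild types. The Pkd2 knockouts were tightly grouped inside the range of the other groups. Lgr6, a low-level relative, had 22.4, 31.7 and 20.1 in double knockouts, 5.0, 11.2 and 9.7 in Pkd2 knockouts, and 12.1, 15.8 and 35.9 in wild types. Each Pkd2 knockout was below every other kidney. The log2 fold changes were 1.46 ± 0.45 in double knockouts against Pkd2 knockouts (limma, adjusted p = 0.257) and -1.12 ± 0.45 in Pkd2 knockouts against wild types (limma, adjusted p = 0.237), and the second of these was -0.68 without wild type 3. Znrf3 had 969, 942 and 848 in double knockouts, 779.6, 766 and 794 in Pkd2 knockouts, and 1062, 1013 and 803 in wild types. The Pkd2 knockouts were lowest, with wild type 3 just above them, and the log2 fold change was -0.29 ± 0.11 against wild types (limma, adjusted p = 0.217). Rnf43, the other ubiquitin ligase, ranged from 329.7 to 387 in double knockouts, 301 to 332 in Pkd2 knockouts and 337 to 367 in wild types, with Pkd2 knockouts just below wild types without overlap. Lgr5 ranged from 17.2 to 46.8 in double knockouts, 20.5 to 41.7 in Pkd2 knockouts and 30.5 to 64.2 in wild types, with overlap. The tested R-spondins, Rspo1 and Rspo3, were low and scattered: Rspo3 had 35.6, 27.2 and 13.4 in double knockouts, 28.8, 16.8 and 35.1 in Pkd2 knockouts, and 41.2, 40.6 and 7.6 in wild types, and wild type 3 was far below the other mice of its group.

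Axin2, the feedback inhibitor whose transcript is the usual readout of beta-catenin activity, did not separate the groups. It had 118, 77.0 and 61.3 normalized counts in double knockouts, 79.4, 79.4 and 89.7 in Pkd2 knockouts, and 81.4, 75.5 and 68.6 in wild types. Double knockouts held both the highest and the lowest value. The log2 fold change in Pkd2 knockouts against wild types was 0.14 (95% interval -0.39 to 0.67; limma, adjusted p = 0.798).

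Genes of the pathway outside the module were described from 4 lists, which share some genes. Limma called 0 of their 68 tested genes outside the module in any comparison. In Pkd2 knockouts against wild types edgeR called 1 of the 68 (1.47%, against 2.40% of all genes) and DESeq2 called 5 (7.35%, against 7.45%). In double against Pkd2 knockouts edgeR called 0 and DESeq2 called 2 (2.94%, against 3.0%), and in double knockouts against wild types both called 0. The 10 tested genes of Wnt secretion and further secreted regulators had 1 higher and 2 lower at an unadjusted p below 0.05 in Pkd2 knockouts against wild types, with a median log2 fold change of 0.06. The 28 genes of the beta-catenin branch inside the cell had 1 higher and 3 lower (median 0.02). The 16 tested genes known as beta-catenin targets had 2 higher and 3 lower (median -0.08), and 4 of the 16 are members of the module. The 22 tested genes of planar polarity had 1 higher and 2 lower (median -0.07). Over all genes, 18.0% passed at that threshold. In double knockouts against Pkd2 knockouts the counts were 0 higher and 1 lower, 1 and 1, 0 and 3, and 1 and 1 in the same order of lists, against 10.7% of all genes. In double knockouts against wild types they were 1 and 1, 1 and 1, 0 and 0, and 0 and 3, against 11.7% of all genes.

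The abundant genes of the lists, the 2 with the highest mean in each, had these levels. Ctnnb1, which encodes beta-catenin, averaged 20005 normalized counts in double knockouts, 19420 in Pkd2 knockouts and 18083 in wild types. Wls, which carries Wnt to the cell surface, ranged from 9914 to 12569 in double knockouts, 10043 to 11470.5 in Pkd2 knockouts and 9615 to 11558 in wild types. Gpc4, a cell surface proteoglycan, ranged from 15520.5 to 17466 in double knockouts, 13611 to 19096 in Pkd2 knockouts and 14520 to 17518 in wild types. Csnk1a1, the kinase that primes beta-catenin for destruction, ranged from 9236 to 9777 in double knockouts, 8892 to 9706 in Pkd2 knockouts and 8191 to 9603 in wild types. For these 3 genes, and for Ctnnb1, the groups overlapped throughout. Rhoa, a GTPase of the polarity branch, ranged from 9079 to 9702 in double knockouts, 8690 to 9044 in Pkd2 knockouts and 9098 to 9452 in wild types, and Pkd2 knockouts were just below both other groups. Celsr2, a polarity cadherin, ranged from 5368 to 7313 in double knockouts, 5928 to 6588 in Pkd2 knockouts and 6512 to 6644 in wild types.

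Transcripts known as beta-catenin targets had fold changes in both directions, none past limma's threshold. Ccnd1, which encodes cyclin D1 and leads its list in level, had 10118, 13569.6 and 9274 normalized counts in double knockouts, 14795, 14920.5 and 15683 in Pkd2 knockouts, and 10619, 11538 and 9545 in wild types. The Pkd2 knockouts stood above every other kidney. The log2 fold change was 0.52 ± 0.13 against wild types (limma, adjusted p = 0.0813; DESeq2, 0.00927), and -0.48 ± 0.13 in double knockouts against Pkd2 knockouts (limma, adjusted p = 0.196; DESeq2, 0.0469). Exons of another gene on the opposite strand cover 23.4% of the exon bases of Ccnd1. The next 5 genes were chosen after their values were seen, among those with an unadjusted p below 0.05 in Pkd2 knockouts against wild types. Others at that threshold included Apc2 (mean 48.0 in Pkd2 knockouts, 81.2 in wild types), Bcl9l (1739 and 2155) and Amer1 (699 and 543). None of these passed after adjustment (limma, adjusted p = 0.102, 0.229 and 0.198). Cd44, a hyaluronan receptor also made by leukocytes and injured tubules, had 80.4, 71.6 and 111 in double knockouts, 485, 352 and 158 in Pkd2 knockouts, and 91.4, 126 and 75.1 in wild types. All 3 Pkd2 knockouts were above all other kidneys, and mouse 3 was the lowest of them. The log2 fold change was 1.64 ± 0.39 against wild types (limma, adjusted p = 0.0642, and 0.0168 without Pkd2 knockout 3; DESeq2, 0.000341). Double knockouts against Pkd2 knockouts gave -1.79 ± 0.39 (limma, adjusted p = 0.0999, and 0.0180 without that mouse; DESeq2, 0.000159). Macrophage markers summed to 4418 to 5257 in double knockouts, 5594 to 7402 in Pkd2 knockouts and 4625 to 5437 in wild types. All 6 that were tested of 7 had higher means in Pkd2 knockouts than in wild types, none was called, and their part in the Cd44 values was not tested.

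Lef1, a DNA-binding partner of beta-catenin and itself a target, had 39.7, 33.5 and 43.1 normalized counts in double knockouts, 25.8, 31.8 and 27.3 in Pkd2 knockouts, and 42.2, 46.2 and 37.0 in wild types. Its Pkd2 knockout values were the lowest 3 of the 9, with a log2 fold change of -0.55 ± 0.21 against wild types (limma, adjusted p = 0.217). Tcf7, on the same lists and also named after its values were seen, went the other way. It had 36.6, 21.7 and 71.9 in double knockouts, 68.5, 92.5 and 52.6 in Pkd2 knockouts, and 50.2, 45.1 and 35.9 in wild types. Pkd2 knockouts lay just above wild types without overlap (limma, adjusted p = 0.411), and the scattered double knockouts overlapped both groups. Tcf7l1 and Tcf7l2 overlapped between these groups. Notum, an enzyme that strips the lipid from Wnt and so silences it, had 677, 455 and 701 in double knockouts, 473, 364 and 538 in Pkd2 knockouts, and 666, 713 and 833 in wild types. Pkd2 knockouts lay below wild types without overlap, with a log2 fold change of -0.70 ± 0.20 (limma, adjusted p = 0.104; DESeq2, 0.0198), and an antisense gene covers 29.4% of its exon bases. Sostdc1, a secreted antagonist of Wnt and BMP, had 2918, 2924 and 2527 in double knockouts, 2367, 2436 and 2350.2 in Pkd2 knockouts, and 2814, 3532 and 3521 in wild types. Pkd2 knockouts were the lowest group, at -0.46 ± 0.10 against wild types (limma, adjusted p = 0.0514; edgeR, 0.0446; DESeq2, 0.00166). Sostdc1 passed the threshold there under 7 of 22 alternatives. Double knockouts overlapped wild types, at -0.23 ± 0.10 (limma, adjusted p = 0.408). Gpc3, a proteoglycan that binds Wnt at the cell surface, had 1164, 966 and 909 in double knockouts, 1312, 1304 and 1079 in Pkd2 knockouts, and 828, 846 and 590.0 in wild types. Both mutant groups lay above wild type without overlap, at 0.44 ± 0.16 in double knockouts (limma, adjusted p = 0.326) and 0.72 ± 0.16 in Pkd2 knockouts (limma, adjusted p = 0.0514; DESeq2, 0.00151). The Pkd2 knockout difference also passed limma's threshold with a pseudocount of 10 (adjusted p = 0.0494), with array quality weights (0.00328), without Pkd2 knockout 3 (0.0499), and without both that mouse and wild type 3 (0.0415).

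**Figure D4:**
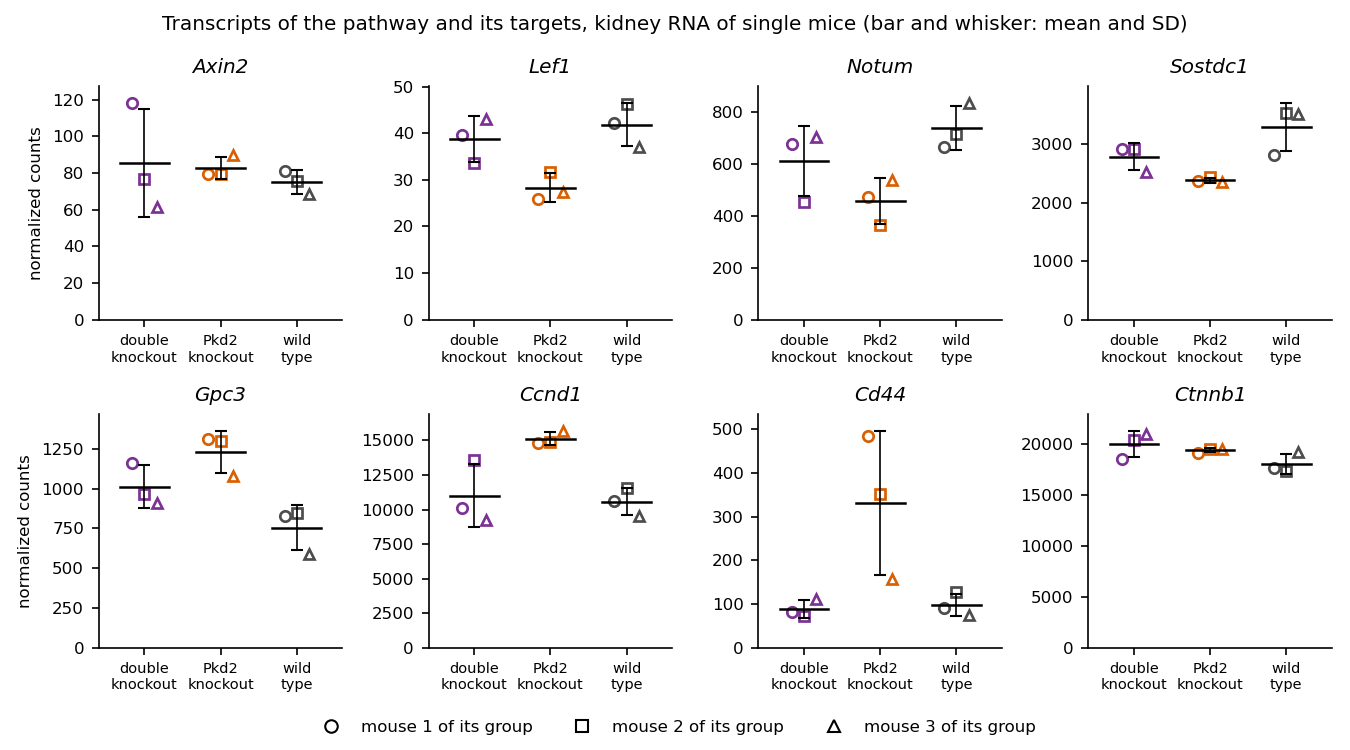
Normalized counts of Axin2 and of 7 pathway or target genes outside the module in each mouse, with the group mean (bar) and SD (whisker), for double knockouts, Pkd2 knockouts and wild types from left to right. Axin2 overlaps between the groups, Lef1, Notum and Sostdc1 are lowest on average in Pkd2 knockouts, and Gpc3, Ccnd1 and Cd44 are highest there.

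**Figure D5:**
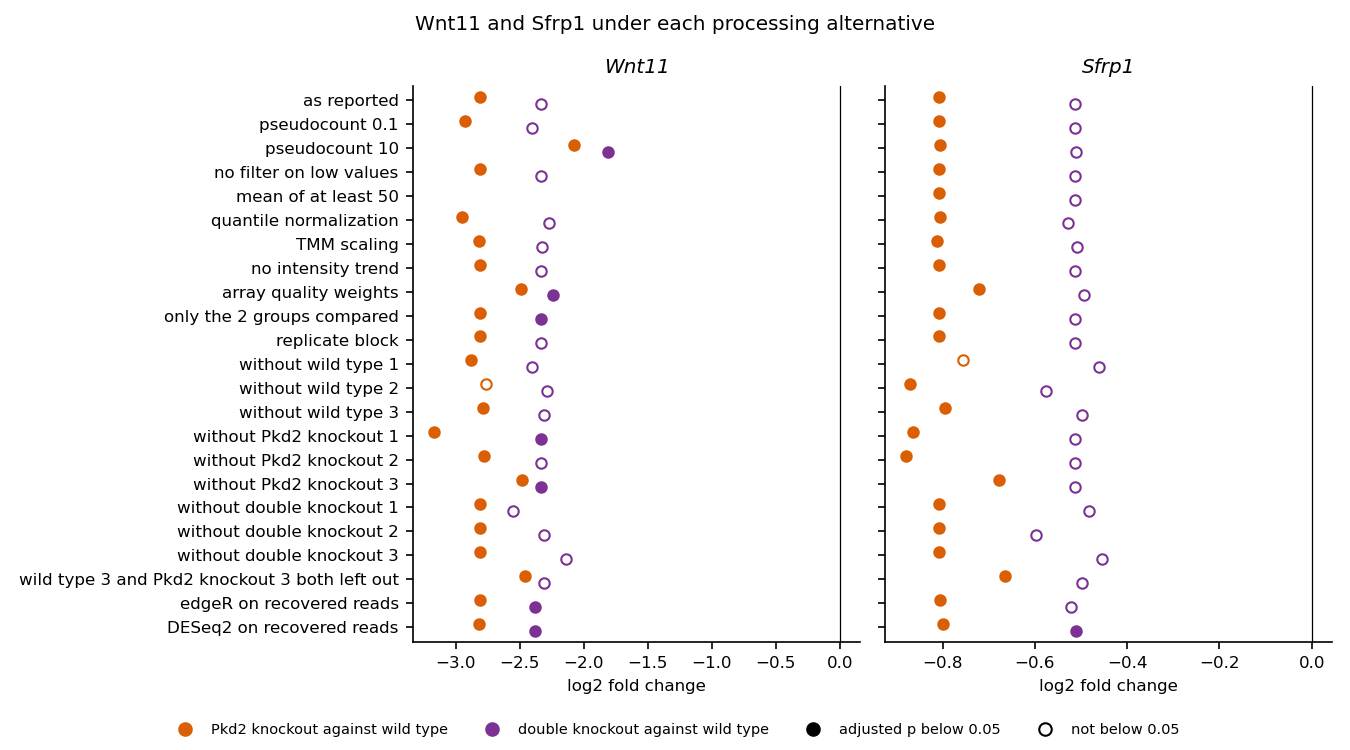
Log2 fold change of Wnt11 and Sfrp1 in Pkd2 knockouts and in double knockouts, each against wild types, under each processing alternative, with a filled point where the adjusted p is below 0.05. Every value lies left of 0. The open points for Pkd2 knockouts are Wnt11 without wild type mouse 2 and Sfrp1 without wild type mouse 1.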

How the data were processed

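The authors deposited normalized counts per gene for 9 poly(A) libraries, a signal per gene with no raw counts beside it. The submitters' processing notes name STAR 2.5.0, HTSeq 0.6.1 and DESeq2. The sources used here give neither build, annotation nor strand setting. Groups and mouse numbers came from the titles, and the series design calls the replicates biological. Dividing by the value of 1 read made 100% of values whole within 0.05, and size factors recomputed from these reads differed from that value by at most 0.000485% in every library, so edgeR 4.0.16 and DESeq2 1.42.0 were run on all 9 as alternatives. The reported test was limma 3.58.1 (R 4.3.3) with an intensity trend on log2(normalized count + 1), over 15740 genes with a mean of at least 10, all 3 groups in 1 fit. The scale understates changes of low genes. 25 rows carry dates as names. Exon lengths and overlaps came from GENCODE M21, matched by symbol for 48 of 48 members; the authors may have used another annotation, and exons of 8 members overlap a gene on the opposite strand. The members, lists and tests were chosen with earlier results of these data known. Values per mouse are given for members called, or at an unadjusted p below 0.05, in any comparison, and for each role's highest mean. The 2 highest of each pathway list are given by mouse, by range or by group mean. Others given by mouse are said to be chosen later. Replicate numbers were not taken as pairs.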

Additional observations from a re-analysis of the deposited data

How the results depend on the processing

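All 40 fold changes that were computed kept their sign in all 22 alternatives that could be fitted. The count of 2 called members in Pkd2 knockouts against wild types was 1 with a mean of at least 50 (all genes 2.51%). Wnt11 is then not tested. That count was 13 with array quality weights (3 higher, 10 lower, 34.2% of members, against 20.5% of all genes). With DESeq2 it was 5 (13.2%, against 7.45%). With each library left out it was 1 to 2 (all genes 70 to 436, against 377 as reported). That count was 3 without wild type 3 and Pkd2 knockout 3 (7.89%, against 3.28% of all genes). The count of 0 in double against Pkd2 knockouts was 2 with array quality weights (5.26%, against 3.90% of all genes), 1 (Wnt10a; all genes 1.96%) without wild type 3 and Pkd2 knockout 3, and 0 to 0 with each library left out. The count of 0 in double knockouts against wild types was 1 with a pseudocount of 10 (all genes 0.254%). It was 2 with array quality weights (5.26%, against 1.87% of all genes). It was 1 with only these groups in the fit (all genes 0.159%). Without wild type 3 and Pkd2 knockout 3 it was 1 (Fzd6, all genes 0.705%). It was 1 with edgeR (all genes 0.210%) and 3 with DESeq2 (all genes 2.76%). With each library left out it was 0 to 1 (all genes 18 to 58, against 36 as reported). For the pathway lists, the count of 0 in Pkd2 knockouts against wild types was 2 with a pseudocount of 10 (2.94%, against 2.56% of all genes). It was 1 with quantile normalization (1.47%, against 2.40%) and 16 with array quality weights (23.5%, against 20.5%). It was 1 with only these groups (1.47%, against 1.98%) and 2 without wild type 3 and Pkd2 knockout 3 (2.94%, against 3.28%). With edgeR it was 1 (1.47%, against 2.40%), and with DESeq2 5 (7.35%, against 7.45%). With each library left out it was 0 to 2 (all genes 70 to 436). In double against Pkd2 knockouts the pathway count was 1 with array quality weights (1.47%, against 3.90% of all genes). It was 1 (Cd44) without wild type 3 and Pkd2 knockout 3 (1.47%, against 1.96%) and 2 with DESeq2 (2.94%, against 3.0%). With each library left out it was 0 to 1 (1 without Pkd2 knockout 3, 1.47%, against 0.978%). Leaving out 1 library moved 11 of the 40 log2 fold changes by over 1.5 times. In double against Pkd2 knockouts these were Wnt11 (0.48; 0.84 without Pkd2 knockout 1, 0.15 without Pkd2 knockout 3, 0.26 without double knockout 1), Wnt9b (0.58; 0.37 without Pkd2 knockout 2, 0.36 without double knockout 1), Wnt10a (-1.19; -1.79 without Pkd2 knockout 3), Wif1 (0.67; 0.39), Sfrp1 (0.29; 0.17) and Frzb (-0.24; -0.14). In Pkd2 knockouts against wild types they were Wnt5b (-0.46; -0.26 without Pkd2 knockout 3), Lgr6 (-1.12; -0.68) and Axin2 (0.14; 0.077 without wild type 3, 0.083 without Pkd2 knockout 3). In double knockouts against wild types they were Sfrp5 (-1.45; -0.94 without double knockout 2) and Gpc3 (0.44; 0.27 without wild type 3). Where no construction is named, the cause was not tested. Same-numbered mice did not deviate together in every comparison: of 9 pairs the correlation ran from -0.14 to 0.21, and 2 were over 0.1. Both were in double knockouts against wild types, for mice 1 (0.21) and mice 3 (0.11), while mice 2 had 0.019. Double knockout 3 and Pkd2 knockout 2, of unlike number, had 0.17. With the replicate number as a block, called members numbered 2 in Pkd2 knockouts against wild types (all genes 1.38%). They numbered 0 in double against Pkd2 knockouts (all genes 0.0953%) and 0 in double knockouts against wild types (all genes 0.127%). Pathway genes called numbered 1 (Gpc3, limma, adjusted p = 0.0306), 0 and 0 in the same order. Under that block Ift88 in double against Pkd2 knockouts missed the threshold (limma, adjusted p = 0.0753). The limma fit restricted to libraries with recovered reads was not run separately, since it holds all 9. With 3 mice a group, and low counts for Wnt8b, Wnt2, Lgr6, Rspo1 and Sfrp5, wide intervals limit what can be seen for low members.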

Other observations

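Pkd2 knockout 3 had the highest erythroid marker sum, 5422 normalized counts, against 78.6 to 345 in double knockouts, 293 to 902 in wild types, and 259 at the lowest in its own group. It had the highest adipose and adrenal marker sum as well, 1107, against 265 to 304 in double knockouts and 198 to 545 in wild types. The part of these differences in the members' values was not tested.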
